A study of Homo sapiens with 18 samples.

Results

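The genes described here carry out the making, storage, uptake, breakdown and sensing of acetylcholine: CHAT, SLC18A3, SLC5A7, ACHE, BCHE and the nicotinic receptor subunits CHRNA3, CHRNA5, CHRNA7, CHRNB2 and CHRNB4. They were chosen by symbol, and all 10 of 10 were found among the 60612 rows of the gene count table, of which 60401 could be matched to a symbol by Ensembl ID. The measurements are RNA-seq of polyadenylated RNA from HepG2, a hepatocellular carcinoma line, and SH-SY5Y, a neuroblastoma line. Each line has 3 control libraries, whose cells received a plasmid expressing the fluorescent protein mNeonGreen, and 3 libraries whose plasmid also expresses a miRNA, EXACT1. HepG2 cells were transfected with Lipofectamine 2000 and 100 ng of plasmid per well, and SH-SY5Y cells by nucleofection, so line and way of transfection cannot be told apart. The libraries of HEK293A cells in the same series were not analysed here. No label says whether the 3 libraries of a group came from separate cultures, so p-values measure the spread between libraries, which may be technical.

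Acetylcholine is made from choline and acetyl-CoA by choline acetyltransferase (CHAT), loaded into vesicles by the transporter SLC18A3 and split after release by acetylcholinesterase (ACHE). The choline set free is taken back into the nerve ending by SLC5A7, and butyrylcholinesterase (BCHE), made largely in liver, also splits choline esters. Nicotinic receptors are pentameric cation channels that open on binding acetylcholine. In sympathetic ganglia the common form holds CHRNA3 and CHRNB4, while CHRNA7 forms channels of its own and CHRNB2 is best known from brain, where it joins CHRNA4. SH-SY5Y derives from the sympathetic lineage and is a common model of ganglionic nicotinic receptors.

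Sequences and positions set these genes out as 2 clusters and 5 lone loci (GRCh38, GENCODE release 29). CHRNA5 (chromosome 15, 78565520 to 78595269, plus strand), CHRNA3 (78593052 to 78621295, minus strand) and CHRNB4 (78624119 to 78727754, minus strand) lie side by side, with 2823 bases between CHRNA3 and CHRNB4. CHRNA5 and CHRNA3 run towards each other and share 198 exonic bases on opposite strands. SLC18A3 (chromosome 10, 49610301 to 49612720, plus strand) lies inside the extent of CHAT (49609095 to 49665104, plus strand), with 0 exonic bases in common. The other loci are CHRNA7 on chromosome 15 (31923438 to 32173018, plus strand), CHRNB2 on chromosome 1 (154567781 to 154580026, plus strand), ACHE on chromosome 7 (100889994 to 100896974, minus strand), BCHE on chromosome 3 (165772904 to 165837472, minus strand) and SLC5A7 on chromosome 2 (107986523 to 108013994, plus strand).

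**Figure D1:**
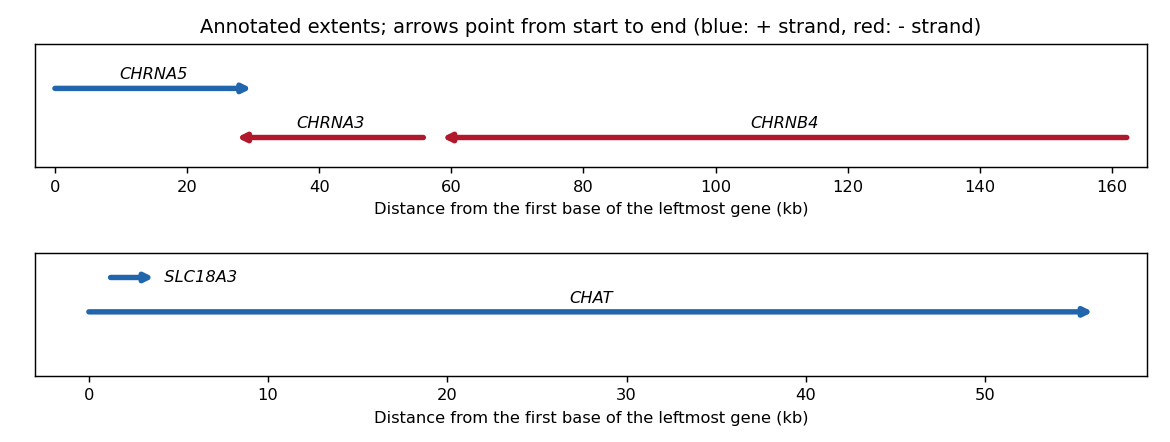
Annotated extents of the CHRNA5, CHRNA3 and CHRNB4 genes (upper panel) and of CHAT with SLC18A3 (lower panel). The x axis is distance in kb from the first base of the leftmost gene, and each arrow runs from a gene's start to its end. CHRNA5 points towards CHRNA3, whose end it overlaps, and SLC18A3 lies within CHAT near its start.

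Below are 160 bases from upstream of an annotated start of 5 genes, in the 5′ to 3′ direction of the gene, from RefSeq (GRCh38.p14). They are shown because CHAT and SLC18A3 are neighbours with very different transcript levels, SLC5A7 is the transporter nearest to 0 counts, and CHRNB2 and CHRNB4 are the beta subunits found at high levels only in SH-SY5Y among these lines. Capitals mark matches, on either strand, to the GC box (GGGCGG), the TATA box (TATAAA) or the cAMP response element core (TGACGT). The windows are chr10:49610141-49610300 for SLC18A3, chr10:49608935-49609094 for the most upstream start of CHAT, chr2:107986363-107986522 for SLC5A7, chr1:154567618-154567777 for CHRNB2, all on the plus strand, and chr15:78641246-78641405 on the minus strand for CHRNB4.
SLC18A3: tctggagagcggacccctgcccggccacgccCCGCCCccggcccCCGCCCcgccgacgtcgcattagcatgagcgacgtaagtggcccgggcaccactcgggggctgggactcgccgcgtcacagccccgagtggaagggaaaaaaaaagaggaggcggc
CHAT: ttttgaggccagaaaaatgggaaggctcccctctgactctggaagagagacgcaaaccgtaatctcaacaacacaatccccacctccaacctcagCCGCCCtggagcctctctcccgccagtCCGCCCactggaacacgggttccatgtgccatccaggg
SLC5A7: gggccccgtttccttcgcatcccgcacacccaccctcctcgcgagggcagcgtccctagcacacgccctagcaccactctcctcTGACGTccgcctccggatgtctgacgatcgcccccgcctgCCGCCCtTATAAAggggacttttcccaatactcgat
CHRNB2: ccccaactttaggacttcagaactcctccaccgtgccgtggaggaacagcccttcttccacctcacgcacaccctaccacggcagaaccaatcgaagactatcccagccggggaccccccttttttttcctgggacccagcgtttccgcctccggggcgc
CHRNB4: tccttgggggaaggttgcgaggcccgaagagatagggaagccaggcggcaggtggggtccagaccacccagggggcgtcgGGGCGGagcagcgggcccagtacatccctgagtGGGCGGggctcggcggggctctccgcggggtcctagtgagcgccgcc

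SLC18A3, CHAT and CHRNB4 each held 2 GC boxes in these windows. SLC5A7 held a GC box, a TATA box and a cAMP response element core, and CHRNB2 held no match. Over the wider RefSeq windows, from 250 bases before a start to 50 after it, a GC box was found in 45% of 35116 windows, a TATA box in 11.5% and a cAMP response element core in 7.98%. CHRNA7 had 6 GC boxes in each of its wider windows and CHRNA3 had 4, while CHRNB2 and BCHE had none. RefSeq windows were matched for 9 of the 10 genes, CHRNA5 being the exception. The start used for CHRNB4 lies inside the GENCODE extent of that gene. Bases in annotated exons were not printed, so the CHRNB4 stretch above ends short of that start. A match is a description of letters, and these data do not measure binding.

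Depth was even across libraries, at 70897097 to 77100150 counts in HepG2 and 66056962 to 72587614 in SH-SY5Y. Levels are given as CPM, counts scaled to a common library size, here adjusted by the trimmed mean of M values (TMM) over the 12 libraries, and levels of different genes are compared as CPM per kb of annotated exon. Each line had 1 library that stood apart. Ribosomal protein genes took 11.8% of counts in replicate 2 of the SH-SY5Y controls, with 5.03% to 5.45% in the line's remaining libraries, and 9.08% in replicate 1 of HepG2 with EXACT1, against 4.33% to 4.48%. Values without them are given beside the results they moved most. Of 10 hepatocyte markers, 10 reached 1 CPM in HepG2 and 7 in SH-SY5Y, with summed levels of 110000 to 158000 against 163 to 231 CPM. Of 10 sympathetic neuroblast markers, 9 reached 1 CPM in SH-SY5Y, the exception being TH, which makes the precursor of noradrenaline, and 2 in HepG2. Their summed levels were 3660 to 6970 CPM in SH-SY5Y and 4.37 to 7.61 in HepG2. Whether such traces of the other line's markers are a line's own transcripts was not tested. The same holds for the low HepG2 counts of CHRNA3, CHRNB2, CHRNB4, CHRM2 and TMEM35A below, and so for their folds. Of 8 markers of cholinergic neurons of brain or spinal cord, 1 reached 1 CPM in each line. In SH-SY5Y 7 of 8 fibroblast markers and 2 of 8 Schwann cell markers reached 1 CPM. Summed fibroblast markers were at 171 to 259 CPM with EXACT1 and 167 to 311 with control plasmid, and their part in any result was not tested. In bulk RNA, fewer cells with a transcript and less of it per cell cannot be told apart.

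SH-SY5Y held a nicotinic receptor set led by CHRNA3 and CHRNB2, together with the vesicle loader SLC18A3, while transcripts of the synthesising enzyme CHAT and of the choline transporter SLC5A7 were close to the detection floor. HepG2 held CHRNA5, CHRNA7 and ACHE, with low counts of CHRNA3, and counted no read of CHAT, SLC18A3 or SLC5A7 in any of its 6 libraries. The line comparison below was made separately with each plasmid, by edgeR's quasi-likelihood test with Benjamini-Hochberg adjustment over all genes tested. At adjusted p under 0.05, 7 of the 10 genes were called higher in SH-SY5Y with control plasmid, where 30% of all genes tested were called higher and 23.2% lower. With EXACT1 plasmid 8 were called higher, where 28.1% of all genes tested were called higher and 24.3% lower. Only ACHE, CHRNA3, CHRNA5 and CHRNA7 passed the filter on low counts in HepG2 by themselves. CHAT, SLC18A3, CHRNB2 and CHRNB4 passed it in the line comparisons through their SH-SY5Y counts, and their calls are not independent of that filter. BCHE passed with control plasmid only, and SLC5A7 in neither line comparison.

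**Figure D2:**
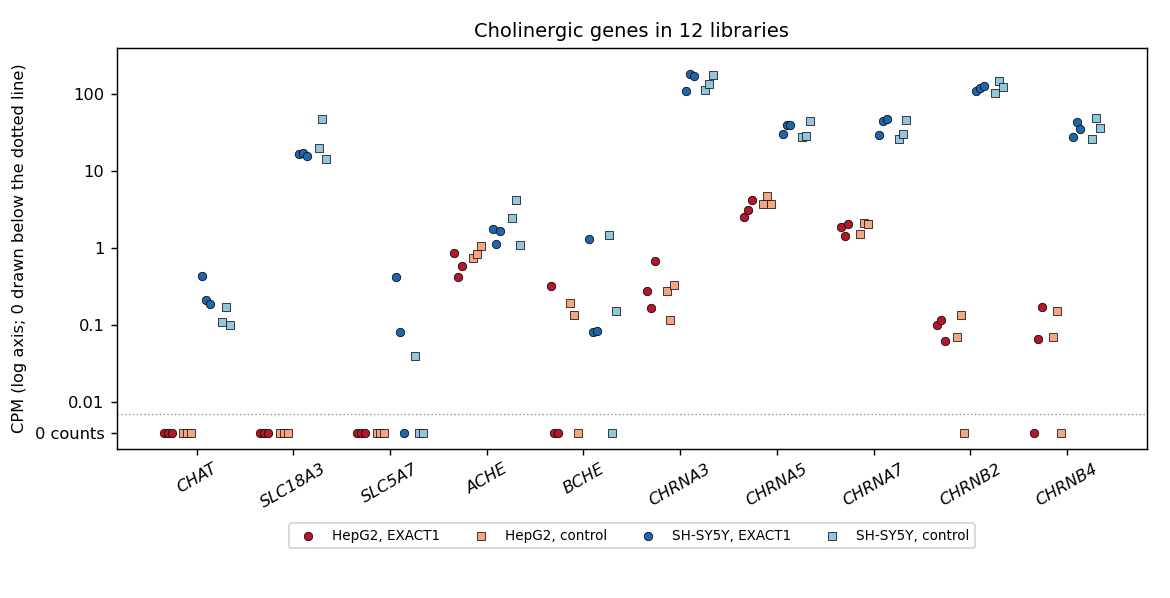
CPM of the 10 genes (log axis) in each of 12 libraries, with circles for EXACT1 plasmid, squares for control plasmid, red tones for HepG2 and blue tones for SH-SY5Y. Libraries with 0 counts are drawn below the dotted line. The 5 nicotinic subunits and SLC18A3 sit higher in every SH-SY5Y library than in any HepG2 library, while the ranges of BCHE overlap between lines.

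CHAT, the enzyme that makes acetylcholine, was at the edge of detection. In SH-SY5Y it had 44, 21 and 18 counts in EXACT1 replicates 1 to 3 and 11, 12 and 10 in control replicates 1 to 3, which is 0.186 to 0.434 CPM and 0.101 to 0.175 CPM. All 6 HepG2 libraries had 0 counts, which allows up to 3 counts, or 0.0472 to 0.0751 CPM, in a library. Against that floor, taken per library, CHAT was at least 2.54-fold higher in SH-SY5Y with control plasmid (adjusted p = 0.0103, edgeR) and at least 4.82-fold higher with EXACT1 plasmid (adjusted p = 0.00672, edgeR). Without SH-SY5Y control replicate 2 the former bound was 2.08-fold, and without SH-SY5Y EXACT1 replicate 1 the latter bound was 3.46-fold. CHAT passed the filter through its SH-SY5Y counts only. Both calls were lost with a replicate block, whose adjusted p-values are given in the closing section. These floors cover counting error only, while the tests and their intervals also hold the spread between libraries.

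SLC18A3, which pumps acetylcholine into vesicles, was the best expressed gene of synthesis and storage. Its levels in SH-SY5Y were 16.7, 17.0 and 15.9 CPM in EXACT1 replicates 1 to 3 and 20.1, 48.1 and 14.3 CPM in control replicates 1 to 3. The EXACT1 libraries lay close together and within the range of the controls, whose high value came from replicate 2. HepG2 had 0 counts in all 6 libraries, so SLC18A3 was at least 543-fold higher in SH-SY5Y with control plasmid (adjusted p = 0.000933, edgeR) and at least 288-fold higher with EXACT1 plasmid (adjusted p = 0.000167, edgeR). Without SH-SY5Y control replicate 2 the control plasmid bound fell to 340-fold. Per kb of exon it exceeded CHAT, inside whose extent it lies, by 59.6 to 132 times in the EXACT1 libraries and by more in the control libraries, 284, 427 and 219 times in replicates 1 to 3. The CHAT side of these ratios rests on 10 to 44 counts.

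SLC5A7, the high-affinity choline transporter of cholinergic nerve endings, had 43, 8 and 0 counts in the SH-SY5Y EXACT1 libraries and 4, 0 and 0 in the control libraries. HepG2 had 0 counts in all 6 libraries. With EXACT1 plasmid the mean level was at least 2.93-fold above the HepG2 floor, with 1 library giving most of it. Without that library, EXACT1 replicate 1, the mean of 4 counts lay below the HepG2 floor in CPM and gave no bound. The gene did not pass the filter in any comparison and has no test.

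ACHE, which ends cholinergic signalling by splitting acetylcholine, was low in both lines. In HepG2 it was at 0.877, 0.418 and 0.583 CPM with EXACT1 and 0.749, 0.838 and 1.06 CPM with control plasmid. SH-SY5Y gave 1.77, 1.12 and 1.69 CPM with EXACT1 and 2.48, 4.16 and 1.09 CPM with control plasmid. Every SH-SY5Y library lay above every HepG2 library, by a small margin at the nearest pair. The difference between lines was 2.53-fold with EXACT1 plasmid (log2 1.34, SE 0.421, adjusted p = 0.0338, edgeR). With control plasmid it was 2.95-fold (log2 1.56, SE 0.552) and missed the threshold (adjusted p = 0.051, edgeR). The EXACT1 call was lost when any 1 of 5 libraries was left out (adjusted p from 0.0556 to 0.114, edgeR), HepG2 EXACT1 replicate 1 being the exception. The control comparison passed without SH-SY5Y control replicate 3 (adjusted p = 0.0164, edgeR) and under DESeq2 (0.015), with 0.015 to 0.149 over all alternatives. Without SH-SY5Y control replicate 2 its log2 difference was 1.02 (adjusted p = 0.094, edgeR).

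BCHE, the cholinesterase that liver secretes, was near the floor in the hepatocellular line. HepG2 had 13, 0 and 0 counts with EXACT1 and 11, 8 and 0 with control plasmid. SH-SY5Y had 134, 8 and 8 counts with EXACT1 and 150, 0 and 15 with control plasmid. Replicate 1 of each plasmid carried nearly all BCHE counts of SH-SY5Y, and the ranges of the lines overlapped. In the same libraries, EXACT1 and control replicate 1, 4 of 8 fibroblast markers were above every other SH-SY5Y library. The collagen gene COL3A1 was at 41.7 and 46.1 CPM there against 2.88 to 6.06, DCN at 21.1 and 30.97 against 3.08 to 4.36, LUM at 33.5 and 52.2 against 11.25 to 17.9, and COL1A1 at 14.96 and 22.6 against 5.56 to 9.86. COL1A2, PDGFRB and THY1 did not follow, POSTN had 0 counts in all 6 libraries, and the part of these markers' cells in the BCHE counts was not tested. The control plasmid comparison was not called (log2 2.35, SE 1.8, adjusted p = 0.308, edgeR), and its sign turned without SH-SY5Y control replicate 1 (log2 -0.44). With EXACT1 plasmid BCHE did not pass the filter and has no test.

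CHRNA3, the alpha subunit of ganglionic nicotinic receptors, had the highest level per length of the 10 genes in SH-SY5Y. Its values there were 110.0, 180.6 and 173.5 CPM with EXACT1 and 114.1, 135.6 and 180.2 CPM with control plasmid. HepG2 stayed between 0.117 and 0.677 CPM (median 0.277), from 7 to 43 counts a library. Whether so low a level is HepG2's own transcript was not tested. The ranges lay far apart: CHRNA3 was 594-fold higher in SH-SY5Y with control plasmid (log2 9.21, SE 0.513, adjusted p = 4.48e-05, edgeR) and 412-fold higher with EXACT1 plasmid (log2 8.69, SE 0.697, adjusted p = 0.00022, edgeR).

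CHRNA5, an accessory subunit that joins CHRNA3-containing receptors without forming the binding site on its own, was the member with the highest level per length in HepG2. It was at 2.53, 3.11 and 4.19 CPM with EXACT1 and 3.80, 4.81 and 3.76 CPM with control plasmid in HepG2. SH-SY5Y gave 30.44, 39.22 and 39.58 CPM with EXACT1 and 27.60, 28.95 and 45.34 CPM with control plasmid. Its difference between lines was 8.32-fold with control plasmid (log2 3.06, SE 0.313, adjusted p = 0.000399, edgeR) and 11.2-fold with EXACT1 plasmid (log2 3.49, SE 0.335, adjusted p = 0.000349, edgeR). Of its exonic bases 23% also lie in AC027228.2, an antisense gene, and whether counting used strand is not given in the sources used here.

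CHRNA7, the subunit of homomeric, alpha-bungarotoxin-binding receptors, was present in both lines. HepG2 ranged from 1.46 to 2.09 CPM over 6 libraries, with a median of 1.96. SH-SY5Y gave 29.95, 45.50 and 47.50 CPM with EXACT1 and 25.82, 30.06 and 46.42 CPM with control plasmid. The lines differed 18.2-fold with control plasmid (log2 4.18, SE 0.352, adjusted p = 0.000202, edgeR) and 23.4-fold with EXACT1 plasmid (log2 4.55, SE 0.333, adjusted p = 0.000147, edgeR). CHRFAM7A, a partial near-identical copy of CHRNA7 on the same chromosome, was at 7.05 to 14.1 CPM in SH-SY5Y, and reads of the copied exons cannot be assigned with certainty. CHRNA7 counts were 2.60 to 3.66 times those of CHRFAM7A across the 6 SH-SY5Y libraries, the lowest ratio being in control replicate 2.

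CHRNB2, the beta subunit of the main brain nicotinic receptor, came close to CHRNA3 in SH-SY5Y. It was at 109.8, 120.5 and 129.6 CPM with EXACT1 and 104.8, 148.7 and 123.1 CPM with control plasmid, a narrower spread than that of CHRNA3. HepG2 had 4, 7 and 4 counts with EXACT1 and 4, 8 and 0 with control plasmid, and the origin of these few counts was not tested. The fitted difference was 1830-fold with control plasmid (log2 10.83, SE 0.818, adjusted p = 0.000146, edgeR) and 1300-fold with EXACT1 plasmid (log2 10.34, SE 0.38, adjusted p = 2.55e-05, edgeR), with a HepG2 side of 8 counts or fewer in each library. CHRNA4, its usual partner in brain, had 0 counts in all 6 SH-SY5Y libraries.

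CHRNB4, the beta subunit of ganglionic receptors, was at 27.9, 43.7 and 35.4 CPM with EXACT1 and 26.0, 49.3 and 36.6 CPM with control plasmid in SH-SY5Y. HepG2 had 0, 4 and 11 counts with EXACT1 and 4, 9 and 0 with control plasmid, again of untested origin. CHRNB4 was thus 502-fold higher in SH-SY5Y with control plasmid (log2 8.97, SE 0.887, adjusted p = 0.000382, edgeR) and 403-fold higher with EXACT1 plasmid (log2 8.66, SE 0.857, adjusted p = 0.000416, edgeR). All 3 genes of the cluster were thus called higher in SH-SY5Y, with the smallest fold at CHRNA5, which HepG2 also expressed.

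Leaving out SH-SY5Y control replicate 2 left 7 genes called higher in the control plasmid comparison, with log2 differences of 9.22 for CHRNA3, 3.13 for CHRNA5, 4.24 for CHRNA7, 10.67 for CHRNB2 and 8.69 for CHRNB4. Over all genes tested, 37.7% were then called higher and 32.4% lower. Without HepG2 EXACT1 replicate 1, where 40.2% of all genes were called higher, the EXACT1 comparison gave 8.47, 3.30, 4.52, 10.35 and 8.16 for the same subunits. Upper quartile scaling moved the median log2 difference of all genes between lines with control plasmid from 0.27 to 0.40, and all of the subunit differences stayed far above that shift.

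Ordered by level per length in SH-SY5Y, CHRNA3 came first at 31.3 ± 6.95 CPM per kb (SD, n = 6), then CHRNB2 at 20.8 ± 2.65. Their ranges overlapped, though CHRNA3 was the higher in 6 of 6 libraries. CHRNA5 (9.71 ± 1.98), SLC18A3 (9.10 ± 5.33) and CHRNB4 (7.33 ± 1.80) followed, with ranges that overlapped between neighbours. CHRNA7 (1.79 ± 0.473) stood apart from the genes above and below it. ACHE (0.542 ± 0.305), BCHE (0.169 ± 0.224), CHAT (0.0541 ± 0.0324) and SLC5A7 (0.0176 ± 0.0322) made up the low end, each overlapping its neighbour. In HepG2 the order was CHRNA5 (1.02 ± 0.221 CPM per kb), ACHE (0.199 ± 0.0597), CHRNA7 (0.0878 ± 0.0134) and CHRNA3 (0.0646 ± 0.0414), and CHRNA7 and CHRNA3 overlapped. The length used matters for CHRNA7, whose 35 annotated transcripts cover 20978 exonic bases in union against 7722 in the longest transcript. On the longest transcript CHRNA7 was at 4.86 CPM per kb in SH-SY5Y, and CHRNB4, at 13.9, moved above CHRNA5.

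Within each library, the share of each subunit among the 11 neuronal nicotinic subunits, per length, does not depend on library scaling. In SH-SY5Y CHRNA3 made up 43.6% ± 3.61 (SD, n = 6), CHRNB2 29.6% ± 3.72, CHRNA5 13.6% ± 1.56, CHRNB4 10.3% ± 1.72 and CHRNA7 2.49% ± 0.356. The mix was much alike in all 6 libraries, with CHRNA3 between 38.6% and 47.2%, and control replicate 2, the library that stood apart, gave the lowest CHRNA3 share and the highest CHRNB2 share, 34.3%. HepG2 had another mix, in which CHRNA5 took 68.0% ± 12.6 and CHRNA3 4.30% ± 2.65 of a far smaller total. CHRNA2, singled out after its values were seen, took 18.4% ± 14.0 in HepG2, from 5.89% to 44.0%, with the highest share in EXACT1 replicate 1. With the longest transcript as length, CHRNA3 took 48%, CHRNB2 22%, CHRNB4 14.4%, CHRNA5 10.1% and CHRNA7 5% in SH-SY5Y, so that CHRNB4 came before CHRNA5 and CHRNA7 took a larger share than the 2.49% above. In HepG2 CHRNA7 then took 13.5%, against 5.84% with the union of exons.

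**Figure D3:**
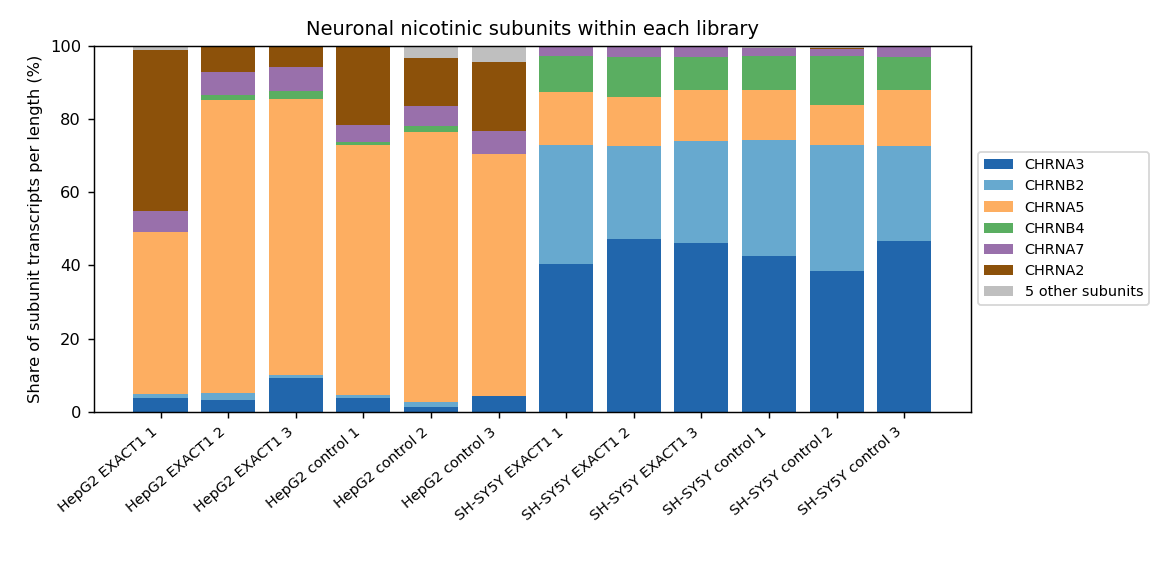
Share (%) of each neuronal nicotinic subunit in the summed level per length of 11 subunits, as 1 stacked bar per library, HepG2 at the left and SH-SY5Y at the right. CHRNA3 and CHRNB2 fill most of each SH-SY5Y bar, and CHRNA5 fills most of the HepG2 bars except EXACT1 replicate 1. There CHRNA5 takes 44.3% and CHRNA2 44.0%.

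The libraries of SH-SY5Y differed among themselves in a way that crossed the plasmids. CHRNA3, CHRNA5 and CHRNA7 were low in EXACT1 replicate 1, control replicate 1 and control replicate 2, and high in EXACT1 replicates 2 and 3 and control replicate 3. CHRM2, a muscarinic receptor, had the same split on a larger scale: 23.97, 18.00 and 30.04 CPM in the low libraries, and 77.5, 78.6 and 86.7 CPM in the high ones. CHRNB2 and CHRNB4 did not follow it, each with its highest value in control replicate 2. The counts of CHRNA3 were 3.61 to 4.68 times those of CHRNA5 in the 6 libraries, and 2.75 to 4.92 times those of CHRNB4. Of 14248 genes compared over these libraries, the genes most like CHRNA3 in log2 CPM were NPY2R (Pearson r = 0.996), PRKG1-AS1 (0.992) and LINGO2 (0.988). CHRNA7 followed CHRNA3 at r = 0.949 and CHRNA5 at 0.905 (n = 6 libraries, which share depth and handling). CHRNB4 gave 0.60, CHRNB2 0.44, SLC18A3 -0.31 and ACHE -0.60. With 111 genes above r = 0.9 over 6 libraries, these values are a description only.

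**Figure D4:**
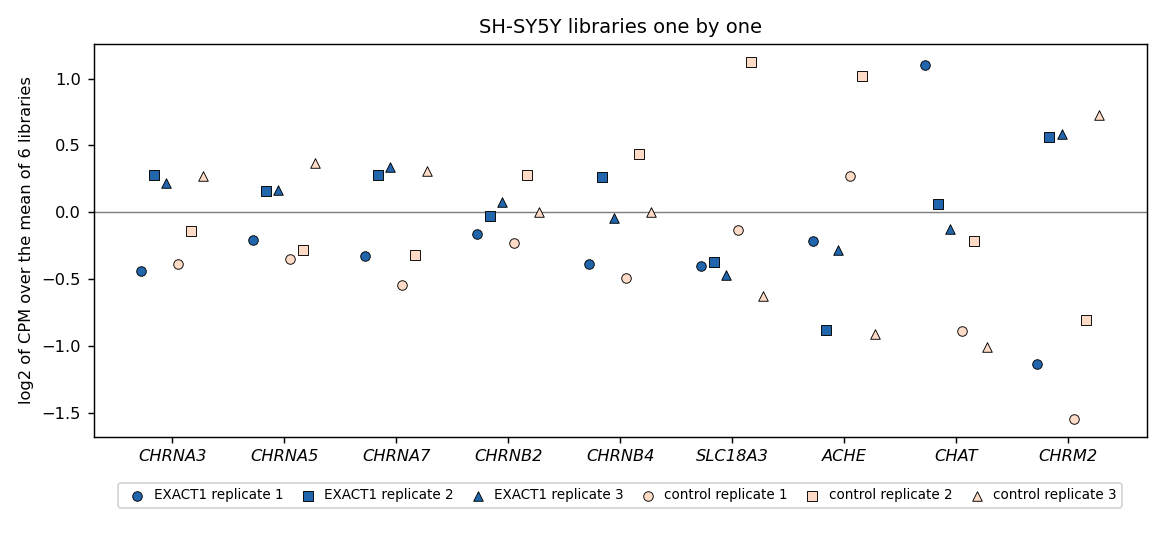
CPM of 8 of the genes and of CHRM2 in each SH-SY5Y library, as log2 of the value over the mean of the 6 libraries, with dark points for EXACT1, light points for control, and circles, squares and triangles for replicates 1, 2 and 3. For CHRNA3, CHRNA5, CHRNA7 and CHRM2 the points above 0 are EXACT1 replicates 2 and 3 and control replicate 3, and SLC18A3 and ACHE are highest in control replicate 2.

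None of the 10 genes differed past the threshold between EXACT1 and control plasmid in either line. In SH-SY5Y 9 were tested and 0 called, and 0% of all 19853 genes tested were called by edgeR, with 200 at an unadjusted p under 0.05 and 9 called by DESeq2. In HepG2 4 were tested and 0 called, and 0% of all 17139 genes were called, with 164 at an unadjusted p under 0.05 and 10 called by DESeq2. No cholinergic gene was among those that DESeq2 called. The median log2 difference, EXACT1 minus control, was -0.09 over the 9 genes in SH-SY5Y, against -0.015 over all genes, and it was 0.06 without control replicate 2. In HepG2 it was -0.26 over the 4 genes, against 0.003 over all genes, and it was -0.15 without EXACT1 replicate 1.

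Intervals say how large an effect could have been missed. For the receptor subunits in SH-SY5Y they were narrower than for SLC18A3, ACHE and BCHE, given below. The log2 difference was 0.09 for CHRNA3 (95% interval -0.57 to 0.75), 0.08 for CHRNA5 (-0.54 to 0.70), 0.25 for CHRNA7 (-0.47 to 0.96), -0.09 for CHRNB2 (-0.60 to 0.43) and -0.09 for CHRNB4 (-0.82 to 0.64). A change of the size of 1 log2 unit in these subunits lay outside all 5 intervals. Smaller changes, up to 0.96 for CHRNA7 or down to -0.82 for CHRNB4, lay inside them. Without control replicate 2, CHRNB2 was at 0.06 (-0.14 to 0.27) and SLC18A3 at -0.07 (-0.42 to 0.28). With that library in, SLC18A3 was at -0.76 (-1.87 to 0.34), and its control value of 48.1 CPM lay far above the others. ACHE was at -0.79 (-2.04 to 0.47), and at -0.25 (-1.15 to 0.65) without that library. BCHE, at -0.17 (-4.22 to 3.87), could not be resolved at its counts.

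In SH-SY5Y CHAT had 18 counts or more in each EXACT1 library and 12 or fewer in each control library. In CPM the groups nearly met, at 0.186 in the lowest EXACT1 library and 0.175 in the highest control library. How many of all genes had groups that did not overlap was not counted. The log2 difference of CHAT was 1.09 (SE 0.622, 95% interval -0.38 to 2.57), a fitted 2.13-fold, and it did not pass the threshold (adjusted p = 0.796, edgeR). In HepG2 the log2 differences were -0.58 for ACHE (95% interval -1.59 to 0.43), 0.58 for CHRNA3 (-1.24 to 2.40), -0.38 for CHRNA5 (-1.15 to 0.39) and -0.14 for CHRNA7 (-0.88 to 0.60). Adjusted p-values there were 0.792 to 0.844, and the groups of all 4 genes overlapped.

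**Figure D5:**
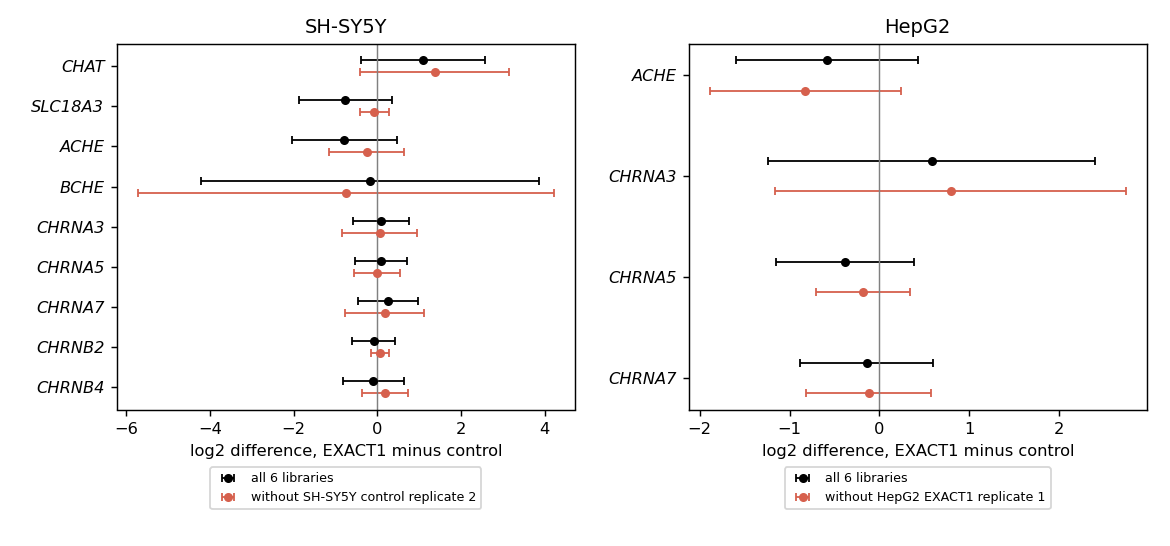
Log2 difference, EXACT1 minus control, of each tested gene in SH-SY5Y (left, 9 genes) and HepG2 (right, 4 genes), with bars for 95% intervals from edgeR. Black points use all 6 libraries, and red points leave out SH-SY5Y control replicate 2 or HepG2 EXACT1 replicate 1. Every interval crosses 0, with and without these libraries.

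A test of the difference between lines in the EXACT1 change called 0% of 22009 genes by edgeR, with 1907 at an unadjusted p under 0.05 and 25 called by DESeq2, and none of the 10 genes. The log2 difference between the lines' EXACT1 changes, SH-SY5Y minus HepG2, was 0.43 for CHRNA5 (95% interval -0.44 to 1.29) and 0.34 for CHRNA7 (-0.58 to 1.26). It was below 0 for CHRNA3 (-0.53, -2.04 to 0.98), CHRNB2 (-0.51, -2.31 to 1.29), CHRNB4 (-0.31, -2.82 to 2.19), ACHE (-0.26, -1.81 to 1.29) and BCHE (-0.05, -6.59 to 6.49), and all 7 intervals held 0. The difference cannot be estimated for CHAT and SLC18A3, which HepG2 lists at 0.

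Other genes of the pathway came from 7 lists with 55 genes, and none was called for EXACT1 in either line, where 0% of all genes were called. The calls between lines below stand beside 30% of all genes called higher in SH-SY5Y and 23.2% lower with control plasmid. With EXACT1 plasmid these shares were 28.1% and 24.3%. No list was tested as a set against these shares. Among 12 other nicotinic subunits, 6 were tested with control plasmid: CHRFAM7A was called higher in SH-SY5Y, CHRNA2, CHRNB1, CHRND and CHRNE lower, and CHRNA10 was not called. CHRNA2, CHRND and CHRNE had 20 counts or fewer in each SH-SY5Y library and passed the filter on low counts through HepG2. Their calls are not independent of that filter. CHRNB1, the beta subunit of muscle receptors, was at 2.96 CPM per kb in SH-SY5Y and 6.70 in HepG2 (log2 -1.02, SE 0.233, adjusted p = 0.00949, edgeR). Apart from CHRNA2, the subunits called lower in SH-SY5Y are known from muscle receptors, but HepG2 did not hold the whole muscle set. CHRNA1 and CHRNG, also of muscle receptors, had 0 counts in all HepG2 libraries. CHRND and CHRNE were low in HepG2 with control plasmid, at 0.452 to 1.17 and 0.575 to 0.905 CPM.

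Of 5 muscarinic receptors, which act through G proteins, 5 were tested and CHRM1, CHRM2 and CHRM3 were called higher in SH-SY5Y with either plasmid. CHRM2 was at 6.30 CPM per kb there and 0.00859 in HepG2 (787-fold with control plasmid, adjusted p = 0.00148, edgeR). CHRM1 was at 0.98 CPM per kb and CHRM3 at 0.815, with 0 counts in all HepG2 libraries. Of the 5 receptors, 0 passed the filter on low counts within HepG2. They passed it in the line comparisons through their SH-SY5Y counts, and their calls are not independent of that filter.

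The receptor chaperones and modulators numbered 14, of which 11 were tested with control plasmid, 7 called higher in SH-SY5Y, 2 lower and 2 not called. Of the 14, only 6 passed the filter on low counts within HepG2, and 10 within SH-SY5Y. TMEM35A, a chaperone needed for CHRNA7 assembly, was at 6.18 CPM per kb in SH-SY5Y and 0.0282 in HepG2 (171-fold with control plasmid, adjusted p = 4.69e-05, edgeR). TMEM35A had 8 counts or fewer in each HepG2 library, and its call is not independent of that filter. UBXN2A, which acts on CHRNA3 trafficking, was 1.74-fold higher with control plasmid (adjusted p = 0.0174, edgeR). LY6E, a membrane-anchored protein of the LY6 family, was not called with control plasmid (adjusted p = 0.476, edgeR) and was called lower in SH-SY5Y with EXACT1 plasmid (log2 -1.83, SE 0.636, adjusted p = 0.0497, edgeR). Both values moved with the libraries that stood apart: LY6E was at 250.9 CPM in HepG2 EXACT1 replicate 1 against 52.91 and 48.94 in replicates 2 and 3, and at 150.1 in SH-SY5Y control replicate 2 against 32.38 and 27.03. Without them LY6E was called lower in SH-SY5Y with either plasmid, at log2 -0.65 with control (adjusted p = 0.00333, edgeR) and -0.74 with EXACT1 (adjusted p = 0.000203, edgeR).

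Of the 2 cholinesterase anchors, PRIMA1, which ties ACHE to neuronal membranes, was at 6.11 CPM per kb in SH-SY5Y and 0.834 in HepG2 (5.95-fold with control plasmid, adjusted p = 0.000568, edgeR). PRIMA1 thus had a higher level per length in SH-SY5Y than ACHE itself, at 0.542. COLQ, the collagen tail of the muscle enzyme, was called with EXACT1 plasmid (adjusted p = 0.0435, edgeR) and not with control plasmid (adjusted p = 0.0529, edgeR).

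Genes that supply choline and acetyl-CoA are shared with lipid synthesis. Of 11 genes of choline uptake and phosphorylation, 10 were tested with control plasmid, with SLC44A2 and PCYT1B called higher in SH-SY5Y and SLC44A1, SLC44A3, SLC44A4 and CHKA lower. Of all genes tested there, 30% were called higher and 23.2% lower. SLC44A4 had 0 to 4 counts in the SH-SY5Y libraries and passed the filter on low counts through HepG2. Its call is not independent of that filter. CHKA, choline kinase alpha, was at 6.23 CPM per kb in SH-SY5Y and 25.4 in HepG2 (log2 -1.90, SE 0.208, adjusted p = 0.000492, edgeR), and SLC44A2, a choline transporter, at 13.4 and 3.09. Of 6 genes of acetyl-CoA supply, ACLY, PDHA1, PDHB and ACSS2 were called lower in SH-SY5Y and 0 higher with control plasmid. Without SH-SY5Y control replicate 2 all 6 were called lower, SLC25A1 at log2 -1.95 (adjusted p = 8e-06, edgeR) and DLAT at -0.42 (adjusted p = 0.00441, edgeR). Of all genes tested, 32.4% were then called lower and 37.7% higher. ACLY, which makes cytosolic acetyl-CoA from citrate, was at 58.3 CPM per kb in SH-SY5Y and 128 in HepG2 (log2 -1.31, SE 0.279, adjusted p = 0.0075, edgeR).

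Of 5 genes that flank the CHRNA5, CHRNA3 and CHRNB4 cluster, only ADAMTS7 was called higher in SH-SY5Y with control plasmid, and 4 were not called. The flanking genes PSMA4 (19.5 CPM per kb in SH-SY5Y and 16.0 in HepG2), MORF4L1 (34.1 and 45.0) and IREB2 (10.2 and 11.4) were called with neither plasmid when all libraries were used. Without SH-SY5Y control replicate 2, 4 of the 5 were called with control plasmid: ADAMTS7 and PSMA4 (log2 0.41, adjusted p = 0.00207, edgeR) higher, and MORF4L1 (-0.40, adjusted p = 0.00137) and IREB2 (-0.25, adjusted p = 0.0469) lower. Of all genes tested, 37.7% were then called higher and 32.4% lower. With EXACT1 plasmid and without HepG2 EXACT1 replicate 1, ADAMTS7 and PSMA4 (0.29, adjusted p = 0.00957, edgeR) were called higher, and MORF4L1 (-0.46, adjusted p = 0.000425) and HYKK (-1.06, adjusted p = 0.0117) lower. The shares of all genes were 40.2% higher and 32.4% lower in that run. IREB2 had 2652 counts in SH-SY5Y control replicate 2 against 10585 to 13990 in the other libraries of that line, and 1560 in HepG2 EXACT1 replicate 1 against 7871 to 8955. A low IREB2 count thus went with both libraries that stood apart, but this was not particular to IREB2. NPTN was also lowest of its line in them, at 983 counts in the SH-SY5Y library and 1707 in the HepG2 library. LY6E was highest of its line in them, at 10318 and 10015 counts.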

How the data were processed

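The deposited gene counts were used as the authors made them: whole-number read counts per Ensembl gene, 1 column per library. The submitters' processing notes name HISAT2, StringTie, cutadapt, limma and edgeR, and the build GRCh38/hg38. Versions, settings and any use of strand in counting: not given in the sources used here. A stranded kit was used, per the labels' protocols.

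Differences were tested with edgeR 4.0.16 in R 4.3.3 (filterByExpr, TMM, robust quasi-likelihood F test, two-sided) on the 6 libraries of a comparison, or on 12 for the difference between lines, with Benjamini-Hochberg adjustment over all genes tested and a threshold of 0.05. The tests were checked on simulated counts. DESeq2 1.42.0, upper quartile scaling, no filter, a replicate block, each library left out in turn and 1 fit of 12 libraries were alternatives. Floors are 3 counts. Gene lengths came from GENCODE release 29 and promoter windows from RefSeq. The table gives total counts per library of 66056962 to 77100150 in the lines used.

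All 10 genes are named. Other genes are named if called for EXACT1 or among the 3 of their list with the highest level per length in SH-SY5Y, and the remaining names were chosen after their values were seen. The genes and lists were chosen with earlier results of these data known, and the 2 libraries left out were chosen after seeing the data.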

Additional observations from a re-analysis of the deposited data

How the results depend on the processing

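No plasmid call among the 10 genes appeared under any alternative run. Over all genes, DESeq2 called 10 in HepG2, 9 in SH-SY5Y and 25 for the difference between lines, against 0 by edgeR. Leaving out each library in turn gave 0 to 2 calls in HepG2 (2 without EXACT1 replicate 1) and 0 to 1 in SH-SY5Y (1 without control replicate 2). Leaving out both libraries that stood apart, an alternative added after seeing the data, gave 2 calls for the difference between lines, where ACHE was then at 0.57 and BCHE at 5.38. Uncalled log2 differences changed sign when single libraries were left out: CHRNA3 from -0.25 to 0.92 in HepG2; in SH-SY5Y BCHE from -2.78 to 2.64, CHRNA3 from -0.027 to 0.30, CHRNA5 from -0.019 to 0.33, CHRNB2 from -0.17 to 0.064 and CHRNB4 from -0.26 to 0.18. BCHE between lines with control plasmid ranged from -0.44 to 3.01. For the difference between lines in the EXACT1 change, ACHE ranged from -0.62 to 0.33, BCHE from -2.64 to 5.96, CHRNA3 from -0.89 to 0.27, CHRNB2 from -1.46 to 0.082 and CHRNB4 from -1.37 to 0.84. The cause was not tested. The median level per length of the 10 genes in SH-SY5Y was 4.56 CPM per kb, 6.98 with the longest transcript as length and 5.98 with library totals. Subunit shares with the longest transcript were 48% for CHRNA3 and 22% for CHRNB2. Labels number replicates alike in each group, but same-numbered libraries did not all deviate together (r from -0.066 to 0.102 between plasmids in HepG2, 0.409, 0.194 and 0.006 for replicates 1 to 3 in SH-SY5Y, and -0.141 to 0.091 between lines), so the numbers were not taken as pairs. In SH-SY5Y replicates 1 and 2 correlated best with their own number and replicate 3 did not. With the replicate block, 0 genes were called for EXACT1, BCHE was at 0.24 in SH-SY5Y and 1.43 for the difference between lines, and 8725 and 7809 genes were called between lines with control and EXACT1 plasmid, against 10526 and 10540. Under the block CHAT (adjusted p = 0.102 and 0.0647, edgeR) and ACHE with EXACT1 plasmid (0.109) were not called between lines. Depth limits what can be said of CHAT, SLC5A7 and BCHE, and in HepG2 of CHRNB2 and CHRNB4, whose counts were 0 in some libraries or low in most.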
